A study of Mus musculus with 4 samples.

Results

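The regions described here are the autosomal TAD boundaries that were found at the same place in both Hi-C matrices of male mouse embryonic stem cells (mESCs). Hi-C measures how often 2 pieces of the genome are joined by ligation, and a topologically associated domain (TAD) is a stretch of chromosome whose parts touch each other more often than they touch the neighbouring stretch. Each 40 kb bin was given a score, the log2 of the mean contact between the 12 bins before it and the 12 bins after it, over the mean of this value on the chromosome. A low score means that little contact crosses the bin. A boundary was a bin with the lowest score within 10 bins on each side and a score of -0.5 or less, and a shared boundary was a WT boundary with a boundary of the other matrix in the same bin or 1 bin away. The members were thus chosen by the scores of both matrices. The rule gave 972 shared boundaries among 58461 autosomal bins scored in both matrices, which were 1.66% of these bins. The WT matrix had 1458 autosomal boundaries, of which 66.7% were shared (95% Wilson interval 64.2 to 69.0). The other matrix had 1703, of which 57.1% were shared (54.7 to 59.4).

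The 2 groups were WT male mESCs of the N3 line, grown in 2i medium, and male mESCs labelled Firre KO, a label that stands for deletion of the Firre long non-coding RNA locus on the X chromosome. The cells labelled Firre KO were grown in the same medium with irradiated feeder fibroblasts, which were depleted before use. The methods do not say that these cells came from the N3 line. The labelled genotype, the cell line and the culture therefore cannot be told apart. Each group had 2 libraries, technical duplicates by the methods, pooled in 1 matrix. There was no replicate to compare and no test was run, and each difference stands for these 2 matrices. Intervals of scores and read pairs cover counting error only. They may be too narrow even for that, since read pairs without molecular identifiers are not independent molecules. Intervals of shares treat boundaries, genes or matches as separate draws and leave out any error of the matrices, and the spread over the 19 autosomes is a description. In a population of cells, a boundary present in fewer cells and a weaker boundary in each cell cannot be told apart. Hi-C holds no expression values, so the cell type label was not checked against marker genes.

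In WT there were 65611035 read pairs, 54168778 of them within autosomes, and in the other matrix 46635652, with 29222889 within autosomes. Read pairs between chromosomes made up 16.1% and 35.6%. The 40 kb bin that lies wholly inside Firre (mm9, X chromosome, 47920001 to 47960000) had 1550 WT read pairs on that chromosome and 1144 in the other matrix. These were 0.171% of the X chromosome read pairs (exact Poisson interval 0.163 to 0.180) and 0.144% (0.135 to 0.152). Relative to read pairs within autosomes, those within the X chromosome were 1.63 times as many in the other matrix. The 2 shares therefore do not compare the bin per autosomal read pair. Because this bin was not empty in cells whose label gives a deletion, the second matrix is called the KO-labelled matrix, after its label Firre KO. The scores had a wider spread in that matrix. Over all scored bins the SD was 0.38 in WT and 0.59 in the KO-labelled matrix, 1.54 times as large, and the share of bins at or below -0.5 was 12.1% and 23.1%.

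A TAD boundary limits contacts between promoters and enhancers on its opposite sides. CTCF, a zinc finger protein that binds an asymmetric DNA motif, holds cohesin at many boundaries. In the loop extrusion model cohesin reels in chromatin until it meets a CTCF site that points toward it, so the motifs at the 2 ends of a domain tend to point inward and those on the 2 sides of a boundary point away from each other. Boundaries are also known to lie near active promoters, housekeeping genes among them. No CTCF binding was measured in the mESCs analysed here, and sequence matches stand only for sequence. The match sought was CCA, 2 bases of any kind, AGG, 1 base of any kind and GGC, on both strands of the mm9 genome. A match that reads this way on the plus strand is called forward and one on the minus strand reverse.

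The following 4 sequences show what such a match looks like inside the bins of shared boundaries. They were taken from the boundaries with the lowest mean score that hold a match outside annotated exons. Each is 60 bases of mm9, written 5′ to 3′ on the strand of the match, with the 12 bases of the match in capitals. All 4 lie between annotated genes.
chr12:70216283-70216342, plus strand: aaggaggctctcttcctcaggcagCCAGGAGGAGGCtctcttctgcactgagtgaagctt
chr5:126006027-126006086, minus strand: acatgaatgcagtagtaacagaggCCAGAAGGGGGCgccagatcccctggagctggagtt
chr12:114459595-114459654, plus strand: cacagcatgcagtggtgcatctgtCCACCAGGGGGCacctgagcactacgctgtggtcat
chr10:126342267-126342326, minus strand: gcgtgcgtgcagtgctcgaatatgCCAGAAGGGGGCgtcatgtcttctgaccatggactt

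A further 4 sequences show the arrangement in which the matches on the 2 sides of a boundary point away from each other. They come from the 2 shared boundaries of lowest mean score, beyond those above, with a reverse match in the bin before and a forward match in the bin after. The first pair flanks the boundary on chromosome 8 at 114560001 to 114600000 and the second pair flanks the boundary on chromosome 10 at 66240001 to 66280000. All 4 lie between annotated genes, and the capitals again mark the match.
chr8:114558725-114558784, before the boundary, minus strand: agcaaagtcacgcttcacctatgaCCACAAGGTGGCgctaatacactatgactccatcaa
chr8:114617612-114617671, after the boundary, plus strand: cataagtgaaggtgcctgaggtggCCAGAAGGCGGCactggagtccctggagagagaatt
chr10:66219989-66220048, before the boundary, minus strand: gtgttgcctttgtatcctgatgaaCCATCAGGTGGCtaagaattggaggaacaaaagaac
chr10:66316100-66316159, after the boundary, plus strand: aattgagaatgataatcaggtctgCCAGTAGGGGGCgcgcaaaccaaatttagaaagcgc

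The shared boundaries were spread over all 19 autosomes. There were 1.41 per 100 scored bins on chromosome 3 and 2.02 on chromosome 19, the lowest and highest of the autosomes. Of the WT boundaries, 33 of 55 were shared on chromosome 17 and 50 of 68 on chromosome 11, the lowest and the highest share. The median distance between neighbouring shared boundaries was 1800 kb (quartiles 1080 and 3000 kb, 953 distances), the smallest was 440 kb and the largest 14200 kb. In 598 of the 972 both matrices had their minimum in the same bin, and in 374 the minima were 1 bin apart.

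The scores chose the members and are given as a description. In WT the score of the 972 boundaries had a median of -0.81, with quartiles of -0.98 and -0.67 and a highest value of -0.50. In the KO-labelled matrix, read at the same bins, the median was -1.16 (quartiles -1.51 and -0.89, 971 boundaries). The 1 boundary without a value, on chromosome 2, had no score in that matrix at the WT bin. At 400 kb before and after the boundary the medians were back above 0, at 0.15 and 0.14 in WT and 0.19 and 0.17 in the KO-labelled matrix. The 3 boundaries just inside the threshold had WT scores of -0.50 and lay on chromosome 1 at 193920001, on chromosome 10 at 56040001 and on chromosome 2 at 71840001. The 3 matched minima just outside it also rounded to -0.50 and lay on chromosome 17 at 50960001, on chromosome 15 at 43600001 and on chromosome 6 at 87000001.

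**Figure D1:**
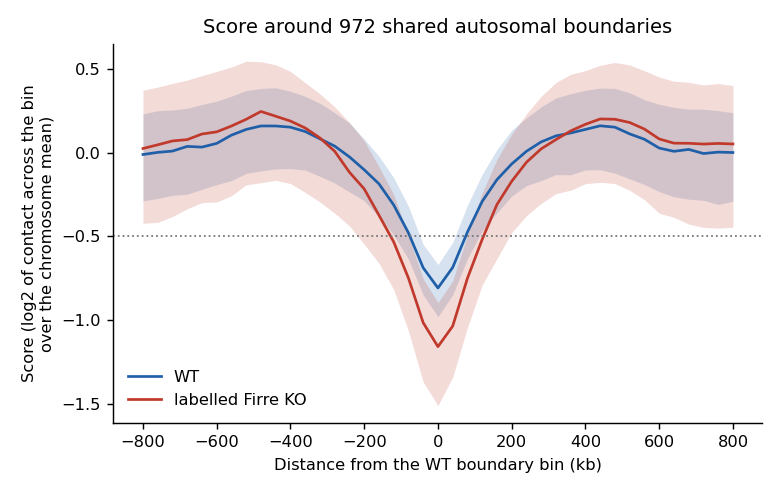
Score by distance from the WT boundary bin in kb, over the 972 shared boundaries. Lines are medians and bands the quartiles in WT and in the KO-labelled matrix. The medians at 0 kb are -0.81 and -1.16, and the dotted line is the threshold of -0.5.

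The change of score, the KO-labelled matrix minus WT at the WT bin, had a median of -0.34 over the shared boundaries (quartiles -0.63 and -0.12, from -2.16 to 0.75). The counting error of a change had a median SE of 0.09. The change was below 0 at 84.9% of the shared boundaries (824 of 971), against 53.1% of all scored bins. It was at or below -0.5 at 34.9% of them (339), against 10.4% of all scored bins, and at or above 0.5 at 0.309% (3), against 3.71%. Since both scores entered the choice of the boundaries, these shares describe the chosen bins and nothing is read from their distance to the background. The direction differed by scale. When each matrix's scores were divided by their SD over all scored bins, 40.5% of the boundaries were below 0. The median change was then 0.14 SD, and 1 SD over autosomes on each side ran from -0.005 to 0.29. The threshold was set on the unscaled scores and so lies at unlike places in the 2 matrices on this scale. The scaled change is therefore also a description. On that scale the median score of the boundaries was -2.11 SD in WT and -1.97 SD in the KO-labelled matrix.

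**Figure D2:**
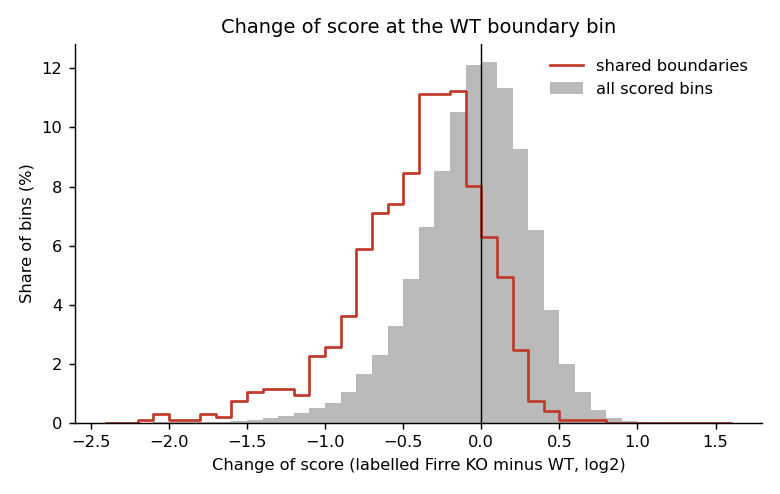
Share of bins in percent by change of score (the KO-labelled matrix minus WT, log2, steps of 0.1). Grey bars are all 58461 scored bins, with values beyond the axis counted in the end steps, and the red line is the 971 shared boundaries with a change. The median is -0.34 at the boundaries and -0.03 over all scored bins.

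With counting error taken into account, the 95% interval of the change lay below 0 at 688 of the 971 boundaries (70.9%, against 36.6% of all scored bins) and above 0 at 56 (5.77%, against 30.6%), and it included 0 at 227. The median change was below 0 on all 19 autosomes, from -0.48 on chromosome 17 to -0.26 on chromosome 19, while the median over all scored bins of an autosome ran from -0.05 to -0.01. The same scores chose these bins, so the interval counts and the autosome medians are a description too. They hold for the unscaled scores, and the scaled scores gave a median change of 0.14 SD over all shared boundaries. The change was also listed by the WT read pairs in the square, which enter the WT score and so the rule. In the tertile of boundaries with the fewest WT read pairs in the square (median 660.5) the median change was -0.32, and in the tertile with the most (median 1738) it was -0.35. The median change was also -0.34 in both the quartile of lowest WT score and the quartile of highest. The WT score is part of the change and of the rule, which leaves little room for a rise near the threshold. The tertiles share this limit, with median WT scores of -0.88 in the lowest and -0.72 in the highest. Tertiles and quartiles therefore do not show whether the change depends on depth or on the WT score. At scored bins with a WT score of -0.5 or less that lay more than 1 bin from any shared boundary, the median change was -0.19 (4514 bins).

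**Figure D3:**
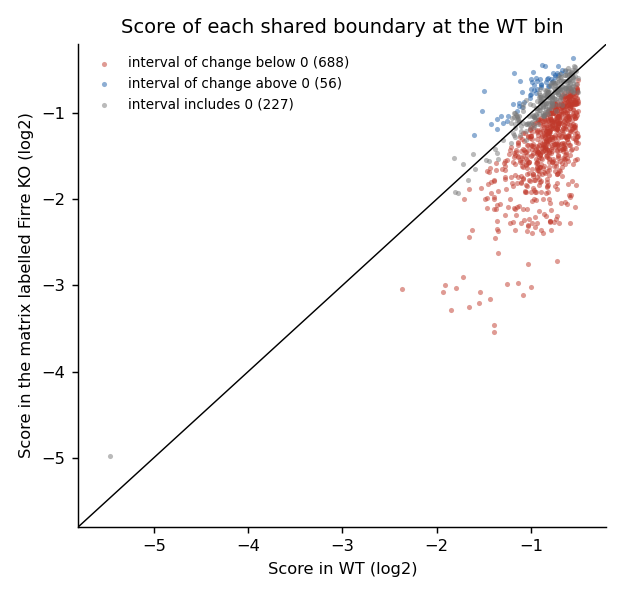
Score of each of 971 shared boundaries in WT and, at the same bin, in the KO-labelled matrix (both log2). The line marks equal scores, and the colours mark whether the 95% counting interval of the change lies below 0 (688), above 0 (56) or includes it (227). The point near -5.5 is the boundary on chromosome 14 described in the text.

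One boundary stood apart from all others by its score. It lies on chromosome 14 at 20360001 to 20400000, holds the start site of the predicted gene Gm2244, and had a score of -5.47 in WT (95% interval -5.996 to -4.93) and of -4.98 in the KO-labelled matrix (-5.68 to -4.28). The next lowest WT score was -2.37. Its square held 32 read pairs in WT and 22 in the KO-labelled matrix, against medians of 1224 and 510 over the shared boundaries, and contact farther out, between bins 13 to 24 bins away on each side, was 0.103 and 0.114 of the mean at that distance. The change of 0.49 had an interval from -0.39 to 1.36.

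The next boundaries by mean score of both matrices differed in the number of protein-coding start sites in the bin. On chromosome 12 at 70200001 the score was -1.93 in WT and -3.07 in the KO-labelled matrix, and no protein-coding gene started in the bin. On chromosome 6 at 47720001 the scores were -2.37 and -3.05, and on chromosome 5 at 126000001 they were -1.55 and -3.20, again with no protein-coding start site. The chromosome 6 bin held 5 start sites of other gene biotypes. The boundary on chromosome 18 at 36920001 held the start sites of 4 genes and had scores of -1.85 and -3.29. Its genes are Hars and Hars2, which encode the cytoplasmic and the mitochondrial histidyl-tRNA synthetase, Dnd1, an RNA-binding protein needed by germ cells, and Zmat2. On chromosome 12 at 114440001 the scores were -1.66 and -3.25, and the bin held 2 forward matches. On chromosome 11 at 93720001 they were -1.91 and -2.996. The start sites in that bin belong to Utp18, a factor of ribosomal RNA processing, and Mbtd1, a chromatin reader protein.

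The largest negative change was on chromosome 10 at 126320001, the bin of Xrcc6bp1, where the score was -1.39 in WT and -3.55 in the KO-labelled matrix, a change of -2.16 (interval -2.47 to -1.84) over 896 and 113 read pairs. Also on chromosome 10, at 79120001, it went from -1.40 to -3.46, a change of -2.06 (-2.42 to -1.71). This bin holds the start sites of Cdc34, a ubiquitin-conjugating enzyme, Madcam1, an adhesion molecule for lymphocytes of the gut, Gzmm, a protease of natural killer cells, and Gm16517. On chromosome 9 at 109760001, the bin of Cdc25a, a phosphatase that activates cyclin-dependent kinases, the change was -2.03 (-2.34 to -1.72). On chromosome 5 at 116000001 it was -2.01 (-2.28 to -1.75). Rplp0, a protein of the ribosomal stalk, and Gcn1l1, which activates the kinase Gcn2 when amino acids are scarce, start there. The fifth, on chromosome 10 at 36720001, had no protein-coding start site and a change of -1.99 (-2.26 to -1.72).

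Changes in the other direction were smaller on the unscaled scores, and the rule limits them. A shared boundary needs a score of -0.5 or less in the KO-labelled matrix within 1 bin, while a negative change has no such limit. The sizes in the 2 directions are therefore a description of the chosen bins. The largest positive change was on chromosome 13 at 112200001, where the score was -1.50 in WT and -0.75 in the KO-labelled matrix, a change of 0.75 (interval 0.57 to 0.93). The next were 0.64 on chromosome 18 at 33920001 (0.49 to 0.80) and 0.54 on chromosome 15 at 32640001 (0.32 to 0.76). None of these 3 bins held a protein-coding start site. On chromosome 2 at 106800001, the bin of 2700007P21Rik, the change was 0.48 (0.31 to 0.66). On chromosome 7 at 89760001 it was 0.45 (0.32 to 0.57), in a bin that holds the start sites of Fam154b and of Eftud1, a GTPase of ribosome maturation. All 5 boundaries had a score below -0.5 in both matrices at these bins, the highest being -0.53, which the rule required there or 1 bin away.

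Genes, sequence and longer contacts were not used to choose the boundaries. Several of their measures, though not all, differed from all scored bins, as they did at boundaries of a single matrix where these are given. Protein-coding start sites, from the GENCODE annotation of mm9, numbered 0.755 per shared boundary bin and 0.353 per scored bin, 2.14 times as many. The ratio was above 1 on all 19 autosomes, with a mean of 2.19 ± 0.42 (SD over autosomes). At least 1 such start site was present in 47.3% of the boundary bins (460 of 972, interval 44.2 to 50.5) and in 24.9% of all scored bins. The share was no lower at boundaries of WT alone (47.5%, 43.1 to 52.0, of 486) and of the KO-labelled matrix alone (52.7%, 49.0 to 56.3, of 731). Both intervals overlapped that of the shared boundaries, and the differences were not tested. The excess was narrow. In the bins next before and next after the boundary there were 0.585 and 0.634 start sites per bin, and 400 kb away there were 0.342 and 0.341. Of the 972 bins, 269 held 1 start site, 134 held 2, and 57 held 3 or more.

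**Figure D4:**
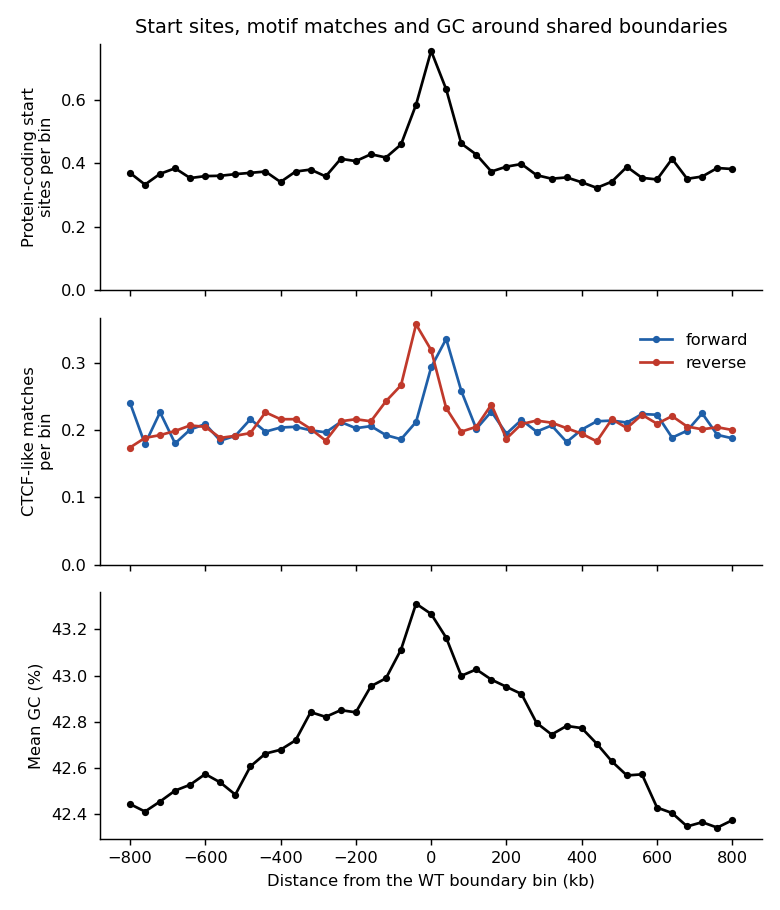
Mean number of protein-coding start sites per bin (top), of CTCF-like matches per bin by orientation (middle) and mean GC in percent (bottom, axis not from 0) by distance from the WT boundary bin in kb, over 972 shared boundaries. Start sites peak at 0.755 in the boundary bin, reverse matches 40 kb before it at 0.357 and forward matches 40 kb after it at 0.335.

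Boundary bins less often lay in the body of a single gene. Of the shared boundaries, 130 (13.4%, interval 11.4 to 15.7) were wholly inside 1 protein-coding gene, against 23.1% of all scored bins, and the share was lower on all 19 autosomes. For boundaries of WT alone and of the KO-labelled matrix alone it was 63 of 486 bins and 110 of 731 (15.0%). Gene bodies nevertheless covered more of the boundary bins, 48.9% of the bases against 39.8%, and this held on 18 autosomes. Start sites had no preferred strand on the 2 sides. In the bins next to the boundary 581 of 1185 start sites read away from it, which was 49.0% (46.2 to 51.9). Start sites of lincRNAs were present in 3.91% of the boundary bins (2.86 to 5.32) and in 1.99% of all scored bins, and those of small RNAs in 10.4% (8.63 to 12.5) and 7.003%. Those of pseudogenes were present in 6.17% (4.83 to 7.87) and 5.36%, and their number per bin was higher at the boundaries on 10 of 19 autosomes.

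The share of boundaries with a start site was also counted by WT score. In the quartile of lowest WT score 56.4% of the bins had a protein-coding start site (50.1 to 62.5), in the next quartiles 46.1% and 44.6%, and in the quartile of highest score 42.4% (36.3 to 48.7). The WT score was part of the rule, so this is a description, and over all scored bins those with a start site also had lower WT scores, with medians of -0.22 and 0.04. Motif matches did not follow this order, with 40.3%, 44.4%, 39.3% and 43.2%. Boundaries with a start site had a median change of -0.37 and those without of -0.30. Among all scored bins the medians were -0.18 with a start site and 0.02 without, so that the contrast by start site was wider over all scored bins than at the boundaries. At the 57 boundaries with 3 or more start sites the median change was -0.44, and over all such scored bins it was -0.32.

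GC content was slightly higher at the boundaries, and its sign depended on the correction of the matrix. The mean was 43.3% ± 3.71 (SD over 972 bins) against 41.9% ± 4.09 over all scored bins, a difference of 1.32 percentage points that was positive on all 19 autosomes (mean 1.30 ± 0.45, SD). The means at boundaries of WT alone and of the KO-labelled matrix alone were 43.1% and 43.7%. When the boundaries were called from uncorrected read pairs, the difference was -0.75. Against bins 5 to 10 bins away from the boundaries it was 0.512, so that most of the difference was shared with the wider surroundings. CpG dinucleotides were 1.22 times as many as in all scored bins and 1.14 times as many as in bins 5 to 10 bins away. HindIII sites, where the chromatin was cut, numbered 12.5 per boundary bin and 12.8 per scored bin.

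The excess of start sites was present at every level of GC. With all scored bins divided in quartiles by GC, the boundaries of the lowest quartile had a start site in 16.7% of bins (interval 10.5 to 25.4, 96 boundaries) against 8.15% of all bins. In the second the shares were 32.6% and 17.3%, in the third 50.3% and 28.7%, and in the highest 63.6% (58.3 to 68.6, 327 boundaries) and 45.5%. The median change also went with GC. It was -0.23 at the boundaries of the lowest quartile and -0.42 at those of the highest, beside 0.04 and -0.14 over all scored bins of these quartiles.

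CTCF-like matches were more frequent at the boundaries and had a side. Matches numbered 0.612 per boundary bin and 0.378 per scored bin, a ratio of 1.62 that was above 1 on all 19 autosomes, and at least 1 match was present in 41.8% of the boundary bins (38.7 to 44.9) and in 28.7% of all scored bins. Boundaries of a single matrix had shares that were no lower, 43.4% for WT alone (39.1 to 47.9) and 47.3% for the KO-labelled matrix alone (43.7 to 51.0). The differences from the shared boundaries were not tested. Among bins with no start site the shares were 37.0% (32.9 to 41.3) and 24.6%, and among bins with a start site they lay closer, at 47.2% (42.7 to 51.7) and 40.9%. By GC, the boundaries of the lowest quartile had a match in 17.7% of bins (11.4 to 26.5), an interval that includes the 11.8% of all bins there, and those of the highest in 60.6% (55.2 to 65.7) against 51.9%. In the bin before the boundary reverse matches numbered 0.357 and forward matches 0.212 per bin. In the bin after it this order was turned, with 0.233 reverse and 0.335 forward matches.

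Thus 673 of the 1105 matches in the 2 bins next to a boundary pointed away from it, which was 60.9% (58.0 to 63.7), and 17 of 19 autosomes had more such matches than matches pointing toward it. Over the first 3 bins on each side it was 57.6% (55.7 to 59.4), on 19 of 19 autosomes. At 5 to 10 bins it was 50.1% (48.6 to 51.5), on 10 of 19. A second spelling with AGA in place of AGG, which cannot match the same 12 bases, gave 55.1% in the next bins (53.6 to 56.6). At 5 to 10 bins it gave 51.2% (50.4 to 51.9, on 14 of 19 autosomes). It was present in 81.5% of boundary bins and 60.8% of all scored bins. This spelling was common, with 1.38 matches per scored bin against 0.378 for the first. Repeated sequence was not left out, and its part in these matches was not tested. The arrangement printed above for chromosomes 8 and 10, reverse before and forward after in the first spelling, was found at 86 boundaries (8.85%). The opposite arrangement was found at 40 (4.12%). Neither was counted over all scored bins or at boundaries of a single matrix, so no background share stands beside them.

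Contact was also lower at the boundaries beyond the square that was scored. Between the bins 13 to 24 bins before and those 13 to 24 bins after it, contact relative to the mean at the same distance averaged 0.814 in WT at the shared boundaries and 0.994 over all scored bins. In the KO-labelled matrix the averages were 0.622 and 0.995. The medians lay closer in that matrix, at 0.548 and 0.746, and in WT they were 0.773 and 0.910. The boundaries were lower on all 19 autosomes in both matrices, and 67.7% of them in WT and 69.7% in the KO-labelled matrix lay below the median of all scored bins. These outer pairs share their surroundings with the scored square but hold none of its bin pairs.

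Contact between neighbouring shared boundaries was lower than between bins just inside both of them and higher than across either of them. Boundaries of a single matrix were left out here and can lie between neighbours, so a pair need not enclose 1 domain. For the 719 neighbouring pairs at most 3 Mb apart, contact between the 2 boundary bins averaged 1.53 times the mean at that distance in WT. When both bins were moved together by 1 to 3 bins, so that the pair crossed 1 of the boundaries, the average was 1.12. When both were moved inward by 1 to 3 bins, so that the pair crossed neither, it was 1.71, and the boundary pairs were higher on 6 of 19 autosomes. In the KO-labelled matrix the averages were 2.07 between the boundaries, 1.22 for pairs moved together and 2.30 for pairs moved inward, with the boundary pairs higher than the latter on 5 of 19 autosomes. The medians between the boundaries were alike, 1.18 in WT and 1.16 in the KO-labelled matrix. Pairs that cross a boundary join bins that the rule chose for little contact, so their lower value is in part what the rule chose and is given as a description. For the 683 WT pairs at least 16 bins apart, where no moved pair lies in a scored square, the averages were 1.53 between the boundaries and 1.13 moved together.

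**Figure D5:**
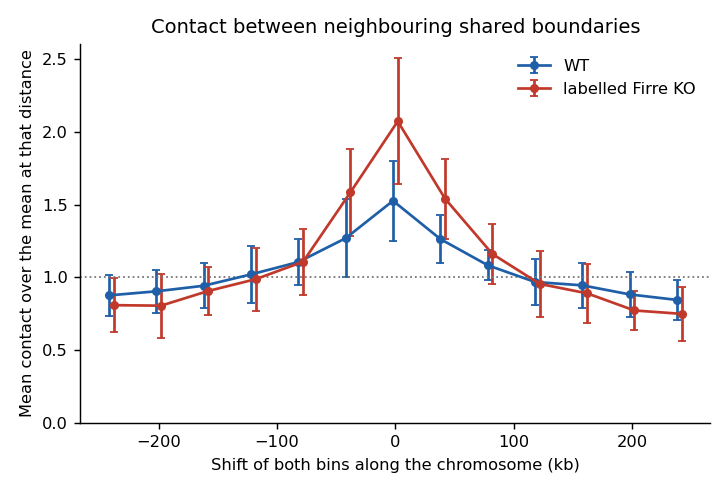
Mean contact between the bins of 719 pairs of neighbouring shared boundaries, relative to the mean at the same distance, by the shift of both bins along the chromosome in kb. Error bars are SD over the 19 autosome means. Shifted pairs cross 1 of the 2 boundaries. The mean is highest at no shift, 1.53 in WT and 2.07 in the KO-labelled matrix.

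The contact was also compared by the direction of the motif matches. At the 167 pairs with a forward match at the first boundary and a reverse match at the second, in the boundary bin or the bin next to it on the inside, the average was 1.58 in WT and 1.81 in the KO-labelled matrix. At the 213 pairs with no such match at either end it was 1.58 and 2.30. Relative to the pairs moved together, the order was the other way, 1.47 times in WT and 1.68 times in the KO-labelled matrix with both matches and 1.31 and 1.64 times with neither. Per autosome, the former were higher on 8 of 19 autosomes in WT and on 7 of 19 in the KO-labelled matrix, with mean differences of -0.005 ± 0.86 and -0.32 ± 1.80 (SD). At the 129 pairs with matches that pointed outward at both ends the averages were 1.28 and 1.70, and at the 279 with an outward match at neither end 1.67 and 2.17. Relative to the pairs moved together they were 1.34 and 1.86 times against 1.37 and 1.59 times. In the averages the former were higher on 4 and 5 of 19 autosomes, with mean differences of -0.34 ± 0.57 and -0.38 ± 1.05. All 4 mean differences were smaller than their SD over autosomes, which is the spread of single autosomes and not the error of their mean. No order held on both scales and in both matrices for either direction. In the averages alone, pairs with outward matches at both ends were lower in both matrices, which was not tested.

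Read pairs of the boundary bins themselves joined other chromosomes slightly less often than those of bins 5 to 10 bins away in WT. The median share of read ends was 14.8% at the boundaries and 15.7% beside them in WT, and it was higher at the boundaries on 0 of 19 autosomes. In the KO-labelled matrix the medians were 35.6% and 35.8%, and it was higher on 5 of 19. The read ends per boundary bin had a median of 2358 in WT and 1650 in the KO-labelled matrix, above the medians of all scored bins, 1981 and 1403. Bins 5 to 10 bins away were closer, with medians of 2282 and 1593.

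The genes that start in the shared boundary bins were then counted by function. Of the protein-coding genes with a start site in a scored bin, 3.56% started in a shared boundary bin, and each list below is read beside this share. Intervals treat genes as separate, although genes of a cluster share bins. Genes of the protein synthesis machinery were among those present. Of the cytoplasmic ribosomal protein genes, which build the ribosome, 10 of 78 (12.8%, 7.12 to 22.0) started in a boundary bin, and 24.4% within 1 bin, against 9.31% of all protein-coding genes. Of the mitochondrial ribosomal protein genes it was 3 of 74 (4.05%), and of the translation initiation factors 2 of 54 (3.70%), both near the share of all genes. Of 17 housekeeping genes it was 1, Rplp0.

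The ribosomal protein genes nearest the middle of their bins had unlike changes. Changes at these and the genes below are on the unscaled scores. Their signs may differ on the scaled scores, where 40.5% of the shared boundaries had a change below 0, against 84.9% unscaled. The boundary of Rpl37 on chromosome 15 had a score of -0.70 in WT and of -2.28 in the KO-labelled matrix, a change of -1.58 (-1.82 to -1.33). That of Rps14 on chromosome 18 had scores of -1.06 and -1.13, a change of -0.07 whose interval, -0.20 to 0.05, included 0. Rps23 and Rps16 lay between, with changes of -0.39 and -0.32. The boundaries of Eif1, which helps the ribosome select the start codon, and of Eif4b, a cofactor of the helicase that unwinds the messenger, changed by -1.73 (interval up to -1.47) and -1.07 (-1.29 to -0.85). Among the mitochondrial ribosomal proteins the changes were -0.41 for Mrps30, -0.03 for Mrps27 and -0.51 for Mrpl43.

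Homeobox clusters, whose genes pattern the body axis, had 9 of 39 genes in a boundary bin (23.1%), but these lay in 2 bins. One, on chromosome 6 at 52160001, holds start sites of Hoxa3, Hoxa6, Hoxa7, Hoxa9, Hoxa10 and Hoxa11 and had scores of -0.98 in WT and -1.17 in the KO-labelled matrix. The other, on chromosome 2 at 74480001, holds Hoxd11, Hoxd12 and Hoxd13 and had scores of -0.71 and -1.15. Other developmental factors had 3 of 50, with changes of -0.36 at Sox12, 0.44 at Pax1 (0.29 to 0.60) and -0.05 at Lhx5. Histone genes had 5 of 67, all in 1 bin on chromosome 13 at 22120001, where the score was -1.60 in WT and -1.26 in the KO-labelled matrix, a change of 0.34 (0.11 to 0.58).

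Receptor and zinc finger families were near or below the share of all genes. Of the olfactory receptor genes 14 of 1101 (1.27%, 0.759 to 2.12) started in a boundary bin, of the vomeronasal receptors 1 of 243, and of the zinc finger genes 9 of 352 (2.56%). The olfactory receptor boundaries differed in their change. It was -0.16 at Olfr154 with an interval that included 0 (-0.46 to 0.15), -1.20 at Olfr543, -1.18 at Olfr9 and 0.39 at Olfr470 (0.20 to 0.58). Among the zinc finger genes the changes were -0.40 at Zfp287, -0.48 at Zfp770, -0.04 at Zfp800 and -0.58 at Zfp637.

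In 6 of the 16 lists no gene started in a shared boundary bin. They were 28 pluripotency genes, where a count of 0 allows a share of up to 10.7%, 18 fibroblast genes (16.7%), 16 genes of chromosome architecture (18.8%), 38 proteasome genes (7.89%), 24 clustered protocadherins (12.5%) and 51 keratins (5.88%). These limits are 3 counts over the number of genes, and the Wilson bounds are higher, from 7.005% for the keratins to 19.4% for chromosome architecture. All 6 limits lie above 3.56%, so these counts do not show a share below that of all genes. Within 1 bin of a boundary, where 9.31% of all protein-coding genes lay, there were 1 of the pluripotency genes, 2 of the fibroblast genes, 1 of the genes of chromosome architecture, 9 of the proteasome genes (23.7%), 3 of the keratins and 0 of the protocadherins.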

How the data were processed

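Hi-C matrices of male mESCs labelled WT and Firre KO were analysed, 1 per group. The authors pooled the libraries, mapped them to mm9 and binned and iteratively corrected them at 40 kb with HiC-Pro 2.7.8, per the labels and methods. Deposited was a corrected contact signal for each bin pair, with equal totals for kept bins. Read pairs were recovered as whole numbers (100% within 0.05) and gave depth and counting intervals. Scores needed at least 50% of the 144 bin pairs of a square. Intervals of scores came from the read pairs with weights held fixed, and those of shares are Wilson intervals. Chromosome lengths of the bins equalled the mm9 reference, and genes came from GENCODE for that build. The score code was tested on simulated data. The members, lists and alternatives were chosen with earlier results of these data known. Named were the 8 lowest mean scores, the 5 largest changes each way among intervals without 0, the 3 members on each side of the threshold, and up to 4 genes per list nearest the bin middle. No sequence of chromosome 18 is shown. Python 3.11.15, numpy 2.4.6, pandas 2.3.3 and scipy 1.17.1 were used.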

Additional observations from a re-analysis of the deposited data

Results flagged for a closer look

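The X chromosome was outside the comparison of autosomal boundaries and held a signal above its WT level. Read pairs within the X chromosome came to 2.72% of the read pairs within autosomes in the KO-labelled matrix and to 1.67% in WT, a ratio of 1.63. With 1 matrix per group the difference was not tested.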

How the results depend on the processing

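No paired analysis was possible because each group is 1 pooled matrix, and no replicate could be left out. Of 81 recomputed shares, changes and GC differences, 47 lay within the reported interval, or within 1 SD over autosomes, 31 moved beyond it and 3 turned direction. Of 12 recomputed counts of boundaries, 9 stayed within 1.5 times the count reported. A square of 24 bins gave 586 shared boundaries, 59.6% of WT boundaries, with a lower score in the KO-labelled matrix at 90.3%, a median change of -0.44, start sites at 60.8%, a GC difference of 2.05 and matches at 45.4%. A square of 6 bins gave a lower score at 77.4%. A threshold of -1 gave 201 boundaries, 71.8% shared and 57.2% with a start site. A threshold of 0 gave 59.7% shared, 78.8% with a lower score and 42.7% with a start site. A minimum within 5 bins gave 69.6% shared. Matching in the same bin gave 598 boundaries, 41.0% shared, 88.1% with a lower score and 52.2% with a start site, and matching within 2 bins gave 72.5% shared. The interquartile mean gave 49.5% shared and a median change of -0.46. Uncorrected read pairs gave 53.1% shared, a lower score at 72.4%, a median change of -0.25, start sites at 38.5%, a GC difference of -0.75 and matches at 37.0%. Counting all gene biotypes, 56.6% had a start site, against 34.8% of all scored bins, and with 1 bin added on each side 76.0%, against 46.9%. The second motif spelling gave matches at 81.5%, against 60.8%, and 1 bin added on each side gave 75.7%, against 58.4%. The GC difference from bins 5 to 10 bins away was 0.51.

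The tallies above include 3 settings chosen after seeing the data, and 2 of the 3 values that turned direction come from these. Dividing by the SD of each matrix gave a lower score at 40.5% and a median change of 0.14, and each matrix at its own bin gave a lower score at 87.9%. Thinning WT to 53.9% of its read pairs matched the read pairs within autosomes of the KO-labelled matrix but not the totals or the squares. A lower score was then found at 84.0% and the median change was -0.34, both within the reported ranges. The share of WT boundaries that were shared moved to 64.1%. The cause of these shifts was not tested. The median SE of 0.09 limits which single changes can be told from 0.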

Other observations

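The shared boundaries with the most start sites were chosen after their values were seen. Both held 7. One is the Hoxa bin described above. The other, on chromosome 9 at 107440001 to 107480000, holds Hyal1 and Hyal2, which encode hyaluronidases, Nprl2, a subunit of a complex that restrains the growth kinase mTORC1, Rassf1, Tusc2, Zmynd10 and Cyb561d2. Its GC content was 52.4%. Its score was -0.73 in WT and -2.23 in the KO-labelled matrix, a change of -1.49 on the unscaled scores. On the same scores the Hoxa bin, with 51.4% GC, changed by -0.19.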
